A study of Mus musculus with 2 samples.

Results

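The genes described here are 52 genes of mitosis, the kinetochore and cytokinesis, taken by symbol from a table of read counts for 46095 genes. They are named by their function, with no threshold on the counts, and all 52 were found in the table. The study sequenced RNA of C3H10 cells, a mouse line of fibroblast-like precursors that can form adipocytes, whose strain the labels give as C57BL/6. One library came from cells transfected with 100 nM of an antisense oligonucleotide (ASO) against the long noncoding RNA MALAT1, and the other came from cells transfected with 100 nM of a negative control oligonucleotide (NC). Both cultures were returned to full medium 8 hours after transfection, grown to confluence, kept for 2 days in an induction medium with isobutylmethylxanthine, dexamethasone, troglitazone and insulin, and then moved to insulin alone, and per the methods they were collected at the sixth day of differentiation. Which of the study's ASOs against MALAT1 was sequenced is not stated in the sources used here. With 1 library per group no difference has a replicate check, so every test and 95% interval below compares these libraries and covers counting error only, in which PCR copies of a molecule are counted as separate reads.

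Mitosis begins when cyclin-dependent kinase 1, bound to an A- or B-type cyclin, is switched on, and it ends when the anaphase-promoting complex has these cyclins degraded. Between these points kinetochores tie chromosomes to spindle microtubules, a checkpoint delays anaphase until all are tied, and a contractile ring then splits the cell. Many of the mRNAs for these steps are made mainly in late S phase, G2 and M and are repressed in resting cells. In cell culture models of adipogenesis, confluent precursors commonly divide for a limited time after induction and then leave the cycle, so mitotic mRNA is usually low in mature adipocytes.

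Late cell cycle promoters often hold a short element called CHR (cell cycle genes homology region), which is bound by the MuvB core of the DREAM repressor complex and of its activating counterparts with B-MYB and FOXM1, and often CCAAT boxes, which are bound by NF-Y. The RefSeq promoter windows (GRCm38.p6, 250 bases before to 50 after a start site) were searched on both strands for TTTGAA as the CHR and for CCAAT, each counted separately so that a base may belong to more than one match. The stretches below belong to the 6 mitotic genes with the highest ratios of ASO MALAT1 to ASO NC among those with a CHR upstream of a start. They are shown to let the elements be read in place, and since a CHR upstream was a condition for showing them, that they share it is no finding. Bub1 had a higher ratio than all 6 and no CHR upstream of a start. Plk1, Kif20b, Kif23, Hmmr and Cenpf, among others, also had none there and had higher ratios than some of the 6. Each runs 5′ to 3′ on the gene's strand and ends at the last base before the start, and capitals mark CHR and CCAAT matches on either strand.
Cep55, chr19:38054998-38055040, plus strand: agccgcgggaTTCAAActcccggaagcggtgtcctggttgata
Cdc20, chr4:118437344-118437406, minus strand: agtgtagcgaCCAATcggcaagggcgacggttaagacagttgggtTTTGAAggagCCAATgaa
Ect2, chr3:27153855-27154002, minus strand: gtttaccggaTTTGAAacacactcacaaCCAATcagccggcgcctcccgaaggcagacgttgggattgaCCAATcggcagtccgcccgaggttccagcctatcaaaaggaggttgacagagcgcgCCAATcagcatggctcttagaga
Mki67, chr7:135716380-135716577, minus strand: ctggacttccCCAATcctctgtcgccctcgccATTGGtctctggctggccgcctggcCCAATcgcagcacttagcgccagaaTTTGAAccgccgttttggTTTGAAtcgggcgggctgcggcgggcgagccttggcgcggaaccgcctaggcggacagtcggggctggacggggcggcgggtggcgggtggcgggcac
Kif11, chr19:37376327-37376381, plus strand: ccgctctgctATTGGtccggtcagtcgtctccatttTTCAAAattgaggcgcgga
Kif2c, chr4:117178773-117178885, minus strand: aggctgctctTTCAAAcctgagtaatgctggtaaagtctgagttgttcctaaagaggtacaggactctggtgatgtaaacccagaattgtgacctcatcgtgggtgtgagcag

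In Cdc20 the CHR began 18 bases before the start and lay between CCAAT boxes that began 53 and 8 bases before it. Mki67 held a pair of CHR matches on the gene's own strand, beginning 116 and 98 bases before the start, with 3 CCAAT matches farther upstream. In Kif11, Kif2c and Cep55 the CHR was read on the opposite strand, and the windows of Kif2c and Cep55 held no CCAAT. These matches describe letters in a window and are not shown to be bound in these cells.

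All 52 mitotic genes had a higher scaled count in the ASO MALAT1 library than in the ASO NC library, where 49.6% of the 17356 genes tested had a log2 ratio above 0. Counts were scaled by TMM factors, and a gene was called higher at a ratio of at least 1.5-fold with an adjusted p under 0.05 when its pair of counts was put to an exact binomial test, two-sided and adjusted by Benjamini-Hochberg over all genes tested. By this rule 37 of the 52 mitotic genes, or 71.2%, were higher and 0 were lower, against 4.68% of all tested genes called higher and 7.44% called lower. No mitotic gene reached 2-fold, a line that 2.47% of all tested genes passed upward. Among genes with at least 100 counts in each library, as all 52 had, that share was 0.159%. The median log2 ratio over the 52 genes was 0.63, or 1.55-fold, with quartiles at 0.56 and 0.70, and it was 0.00 over all genes tested (-0.0029). The lower interval bound was above 0 for each of the 52, which held for 26.7% of all tested genes. The highest adjusted p among the 52 was 3.12e-06 in the exact binomial test, for Bub3.

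The mitotic genes moved within a narrow band. Leaving out Bub3, at 0.13, their log2 ratios ran from 0.38 to 0.88 with an SD across genes of 0.11. For 27 of the 52 the counting interval contained the median of the 52, for 12 it lay wholly above and for 13 wholly below, so part of the spread between genes was larger than counting error. Of the 37 called genes, 18 had an interval that lay wholly above 1.5-fold, while Tpx2 and Spc24 stood just past that line at 1.5002-fold and 1.5003-fold and Ncapg just short of it at 1.49-fold.

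Genes with few counts show larger ratios by counting error alone, which does not include variation between cultures. The mitotic genes were not weakly counted. They had 328 to 15872 counts in the ASO NC library and 611 to 23467 in the ASO MALAT1 library. Among the 9866 genes whose control level lay between those of the lowest and the highest mitotic gene, 5.68 to 275.1 CPM (counts scaled to a common library total), 1.74% were called higher. The 95th percentile of the log2 ratio among these 9866 genes was 0.38, and 50 of the 52 mitotic genes lay above it, Smc4 and Bub3 being the exceptions. Of the 172 genes called higher in that range, 37 were the mitotic genes, 26 were other genes of the mitotic lists below and 18 were replication or G1 genes. Summed over the 52 genes, the level was 2194 CPM in the ASO NC library and 3289 CPM in the ASO MALAT1 library, a ratio of 1.499 (95% interval 1.49 to 1.51).

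**Figure D1:**
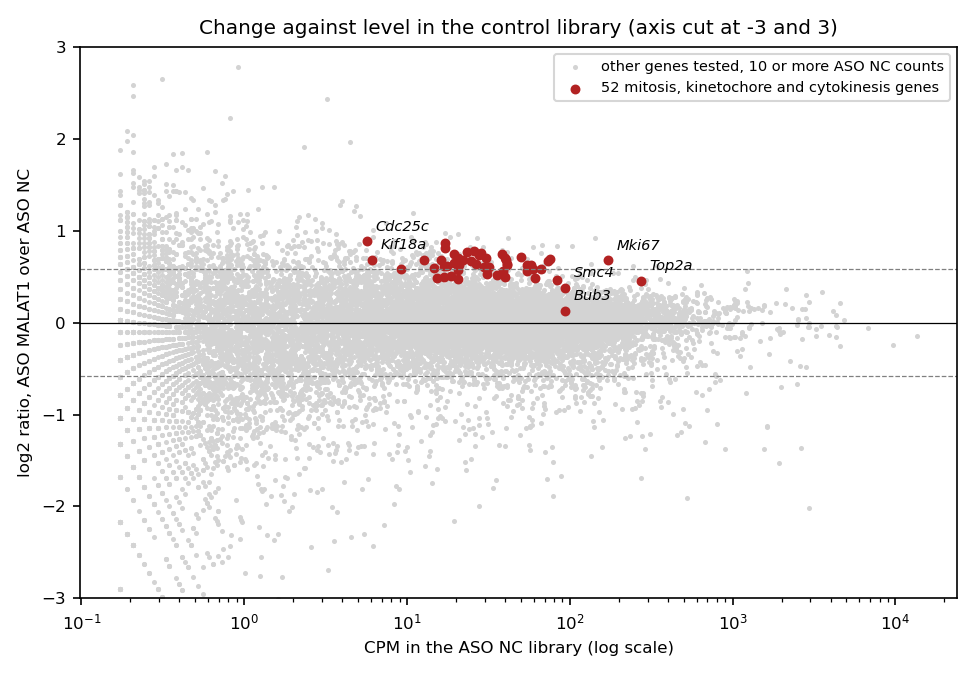
Each point is a gene, with its CPM in the ASO NC library on a log axis and its log2 ratio of ASO MALAT1 over ASO NC on the other axis. Dashed lines mark 1.5-fold, a few weakly counted genes lie beyond the ratio axis, and grey genes have at least 10 counts in ASO NC. The 52 mitotic genes (red) lie from 0.13 to 0.88, most of them at the upper edge of the grey genes of the same level.

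The group of mitotic kinases, cyclins, Cdc25 phosphatases and Foxm1 had a median log2 ratio of 0.65, and 9 of 11 were called higher. In what follows the count in ASO NC cells comes first and that in ASO MALAT1 cells next, and a ratio without a unit is the log2 ratio. Cdk1, the kinase that drives entry into mitosis, had 3345 counts in ASO NC cells and 5564 in ASO MALAT1 cells, a log2 ratio of 0.63 (95% interval 0.57 to 0.69). Its partners Ccna2, with 2314 and 4052 counts, and Ccnb1, with 2343 and 4063 counts, stood at 0.70 and 0.69. Ccnb2, the other B-type cyclin, had 1708 and 2800 counts and a ratio of 0.61, so the intervals of Cdk1 and its 3 cyclins overlapped.

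The phosphatases that activate Cdk1 were less alike. Cdc25c had the fewest counts of the 52 in control cells, 328 against 652 after knockdown, and the highest ratio, 0.88 (95% interval 0.69 to 1.08). Cdc25b had 2059 and 3167 counts, a ratio of 0.51 (0.43 to 0.60), and was under the 1.5-fold line. Plk1, the polo-like kinase of spindle assembly and mitotic exit, had 1339 and 2449 counts and a ratio of 0.76. Aurka, the Aurora kinase of spindle poles, had 1117 and 1893 counts and a ratio of 0.65. Foxm1, a transcription factor that activates G2 and M phase genes, had 2218 and 3997 counts and a ratio of 0.74 (0.67 to 0.82), above the median of the 52. Melk, a kinase of dividing cells, had 1011 and 1668 counts and was called at 0.62. Nek2, a kinase of centrosome separation, was not called, with 879 and 1326 counts and a ratio of 0.49.

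Spindle checkpoint and anaphase genes held the lowest ratio of the 52 and one of the highest, with a median of 0.68 and 6 of 7 called higher. Bub1, the checkpoint kinase at kinetochores, had 982 counts in ASO NC cells and 1935 in ASO MALAT1 cells, a ratio of 0.87 (95% interval 0.76 to 0.98). Bub3, the WD40 protein that brings Bub1 and the Bub1b product BUBR1 to kinetochores, had 5405 and 6379 counts and a ratio of 0.13 (0.08 to 0.19). Bub3 was the only one of the 52 whose interval lay wholly under 0.2, although its protein works in a complex with those of Bub1 and Bub1b. Bub1b had 1525 and 2547 counts and a ratio of 0.63.

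The checkpoint effector Mad2l1 had 1277 and 2211 counts, and the checkpoint kinase Ttk had 737 and 1276 counts, giving ratios of 0.69 and 0.68. Cdc20, the activator of the anaphase-promoting complex that the checkpoint inhibits, had 1497 and 2770 counts and a ratio of 0.78 (0.69 to 0.87). Ube2c, the ubiquitin-conjugating enzyme that serves that complex, had 2376 and 3956 counts and a ratio of 0.63. Apart from Bub3, the genes of this group thus lay between 0.63 and 0.87.

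The 4 genes of the chromosomal passenger complex, which corrects faulty kinetochore attachments and guides cytokinesis, had a median of 0.56. Birc5, which encodes survivin, had 1757 and 3078 counts and a ratio of 0.70 (95% interval 0.62 to 0.79). Incenp, the scaffold, had 3451 and 5586 counts and a ratio of 0.59. Aurkb, the kinase, had 1782 and 2774 counts and a ratio of 0.53, and Cdca8, which encodes borealin, had 973 and 1474 counts and a ratio of 0.49 (0.37 to 0.61). Birc5 and Incenp were called and the other members of the complex were not, but only the intervals of Birc5 and Cdca8 did not touch.

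Centromere and kinetochore genes had a median of 0.59 with 5 of 7 called. The NDC80 complex binds microtubules at the kinetochore, and its subunits are used in equal number. Nuf2 had 1188 and 2079 counts (ratio 0.70), Spc25 had 848 and 1375 (0.59), Spc24 had 531 and 858 (0.59) and Ndc80 had 1071 and 1638 (0.51). The 4 intervals overlapped, those of Nuf2 and Ndc80 only at their ends, and the differences between subunits were not tested. Per kilobase of exon their levels ran in ASO NC cells from 2.86 for Ndc80 to 4.61 for Spc25 in RPKM, and from 4.06 to 6.94 in ASO MALAT1 cells for the same genes. The lengths used join all annotated exons, 6.49 kb for Ndc80 and 2.57 kb for Spc24, so these levels depend on the annotation. Cenpa, the centromeric histone H3 variant, had 971 and 1603 counts and a ratio of 0.62. Cenpf, a large protein of the outer kinetochore, had 2876 and 5100 counts and a ratio of 0.72 (0.65 to 0.79), and Cenpe, the kinetochore kinesin, had 2227 and 3531 counts and a ratio of 0.56.

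Spindle motors and spindle proteins had a median of 0.64, and 7 of 8 were called higher. Kif11, the kinesin that pushes spindle poles apart, had 2389 and 4018 counts and a ratio of 0.64, while Kif15, which can share this task, had 1182 and 1766 counts and a ratio of 0.47 and was not called. Hmmr had the highest ratio of the group, 0.73, with 1608 and 2876 counts. Kif2c, which takes microtubules apart at centromeres, had 1201 and 2001 counts and a ratio of 0.63. Kif4, a chromosome-bound kinesin, had 1428 and 2446 counts and a ratio of 0.67. The microtubule-binding spindle proteins Tpx2, an activator of Aurora A, and Dlgap5 were the lowest called genes here, at 0.59 (3823 and 6175 counts) and 0.60 (1830 and 2992 counts). Kif18a had the lowest level per length of all 52 genes, 0.622 RPKM in ASO NC cells, and 353 and 611 counts gave it a ratio of 0.68 with a wide interval (0.49 to 0.88).

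Cytokinesis genes had the highest median of the role groups, 0.69, with 6 of 8 called. Cep55, which recruits the machinery that cuts the bridge between daughter cells, had 988 and 1864 counts and a ratio of 0.81 (95% interval 0.70 to 0.92). Anln, which encodes the ring scaffold anillin, had 4209 and 7220 counts and a ratio of 0.67, and Ect2, the activator of RhoA at the division site, had 937 and 1621 counts and a ratio of 0.68. The partners of the centralspindlin complex differed: Kif23 had 1115 and 2013 counts and a ratio of 0.75 (0.64 to 0.85), and Racgap1 had 4794 and 7103 counts and a ratio of 0.46 (0.41 to 0.51). Their intervals did not touch. The kinesins of late mitosis Kif20a, with 4388 and 7659 counts, and Kif20b, with 1639 and 2978, stood at 0.70 and 0.75. Prc1, which bundles the central spindle, had 3168 and 5037 counts and a ratio of 0.56.

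Chromosome condensation genes had the lowest median of the role groups, 0.50, and 2 of 7 were called. Top2a, the topoisomerase that untangles sister chromatids, had the most counts of the 52, 15872 in ASO NC cells and 23467 in ASO MALAT1 cells, and a ratio of 0.46 (95% interval 0.43 to 0.49). Among the condensin I subunits, Smc2 had 3159 and 5236 counts and a ratio of 0.62 (0.56 to 0.69), whereas its partner Smc4 had 5405 and 7570 counts and a ratio of 0.38 (0.33 to 0.43). The non-SMC subunits stood between them, Ncapg (1190 and 1912 counts) at 0.58, Ncaph (2298 and 3501) at 0.50 and Ncapd2 (3539 and 5346) at 0.49. Mki67, which encodes the proliferation marker Ki-67, had 9930 and 17134 counts and a ratio of 0.68 (0.64 to 0.72), so the Ki-67 gene was 1.603-fold and the topoisomerase gene 1.37-fold the control level.

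**Figure D2:**
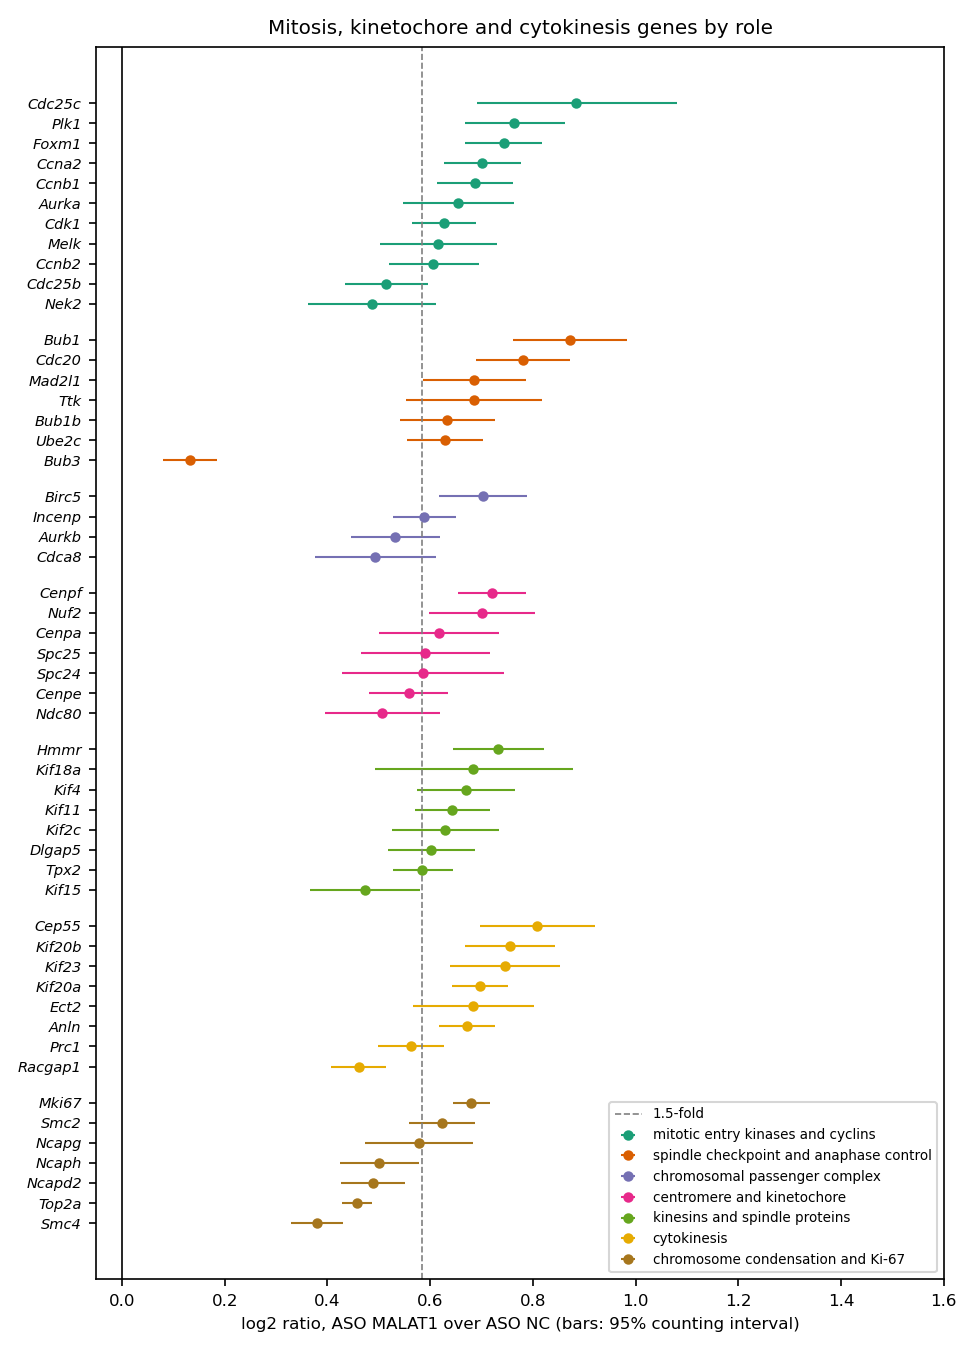
Log2 ratio of ASO MALAT1 over ASO NC for the 52 genes, grouped by role and ordered within each role, with bars for the 95% interval of the counts and a dashed line at 1.5-fold. Every bar lies above 0, Bub3 stands alone at 0.13, and the condensation genes other than Mki67 and Smc2 lie left of the line.

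Levels between genes were compared per kilobase of exon, with all annotated exons of a gene joined, so they depend on the annotation. In ASO NC cells they ran from 0.622 RPKM for Kif18a to 30.5 RPKM for Top2a with a median of 6.04, and in ASO MALAT1 cells the median was 9.72. Across the 52 genes the log2 ratio and the log10 control CPM had a Pearson r of -0.41, a description across genes that share both libraries. The genes lie on 17 chromosomes.

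Other genes of the same processes, 142 in 7 lists written from general knowledge, were higher less uniformly. Of these, 128 had a log2 ratio above 0, 29 were called higher and 0 lower, and the median was 0.26. Of all tested genes, 49.6% lay above 0, 4.68% were called higher and 7.44% were called lower. Each list below is to be read beside these shares. The inner and outer kinetochore list, with 33 of 33 genes above 0, had a median of 0.44 and 9 called. Its highest values were 0.89 for Spdl1, a checkpoint protein with 477 and 949 counts, and 0.87 for Ska1, a microtubule-binding kinetochore subunit with 230 and 454 counts. Its lowest were 0.02 for Zwint, with 10586 and 11560 counts, and 0.06 for Ska2, with only 50 and 56 counts. The spindle and motor list had a median of 0.45 with 9 of 26 called, led by Kif14 at 0.90 (627 and 1256 counts) and Nusap1 at 0.82 (1687 and 3207 counts). At its other end were Haus7 at -0.37 and Haus2 at -0.21, subunits of the augmin complex that branches spindle microtubules.

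Among mitotic kinases and regulators, 5 of 19 were called and the median was 0.37. Fbxo5, an inhibitor of the anaphase-promoting complex, stood at 0.76 and Ccnf, an F-box cyclin, at 0.75, while Pkmyt1, a kinase that holds Cdk1 inactive, stood at -0.21 and Ensa at -0.02. The list of the anaphase-promoting complex, separase and cohesin had the lowest median of the 7, 0.08. In it 2 of 27 were called, against 4.68% of all tested genes. The called genes were Pttg1 (securin) at 0.78, with 796 and 1476 counts, and Espl1 (separase) at 0.62, with 1541 and 2555 counts. The lowest of this list were the subunits Anapc16 at -0.23 and Anapc13 at -0.09. Cdc20, Pttg1 and Ccnb1, whose products are the activator and substrates of the complex, lay from 0.69 to 0.78.

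In the cytokinesis and abscission list 3 of 17 were called and the median was 0.20. The highest were Diaph3, a formin, at 0.79 and Shcbp1 at 0.76, and the lowest were Myh10, a nonmuscle myosin heavy chain with 24008 and 23367 counts, at -0.15 and Vps4a at -0.03. In the list of other chromosome structure genes 0 of 8 were called, with Ncapg2 at 0.46 and Cdca7 at 0.45 highest and Cdca7l at 0.00 (0.0029) and Ncaph2 at 0.04 lowest. In the list of the MuvB core, its pocket proteins and B-MYB, whose products bind CHR promoters, 1 of 12 was called. Of all tested genes, 4.68% were called higher. The called gene was Mybl2, which encodes B-MYB, with 597 and 987 counts and a ratio of 0.62 (95% interval 0.47 to 0.77). Lin54, the subunit that contacts the CHR, had 744 and 1100 counts and a ratio of 0.46, while Lin52 was at -0.41 and Lin37 at -0.09.

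Genes of neighbouring cell cycle phases were read beside the mitotic genes. The DNA replication list had a median log2 ratio of 0.52, with 42 of 44 genes above 0 and 16 called higher. Mcm2, a subunit of the replicative helicase, had 3170 and 5515 counts and a ratio of 0.69, Rrm2, a subunit of ribonucleotide reductase, stood at 0.70, and Pcna, the sliding clamp, had 5971 and 9123 counts and a ratio of 0.50. In the list of G1 cyclins, kinases, inhibitors and E2F factors the median was 0.09 over 20 genes tested. Of these 20, 3 were called higher, against 4.68% of all tested genes. E2f7 and E2f8 are named here after their values were seen. The 3 were Ccnd1 at 0.61 (14129 and 23271 counts), E2f7 at 0.83 and E2f8 at 0.83. Of the inhibitor genes, Cdkn1a and Cdkn1b stood at -0.13 and 0.09, and Cdkn1c had 0 counts in both libraries. Cdkn2c, an inhibitor of the G1 kinases named here after its values were seen, had 5011 and 3851 counts and a ratio of -0.49 (95% interval -0.55 to -0.43), short of the 1.5-fold line. With 1 library per group the differences between these lists were not tested.

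**Figure D3:**
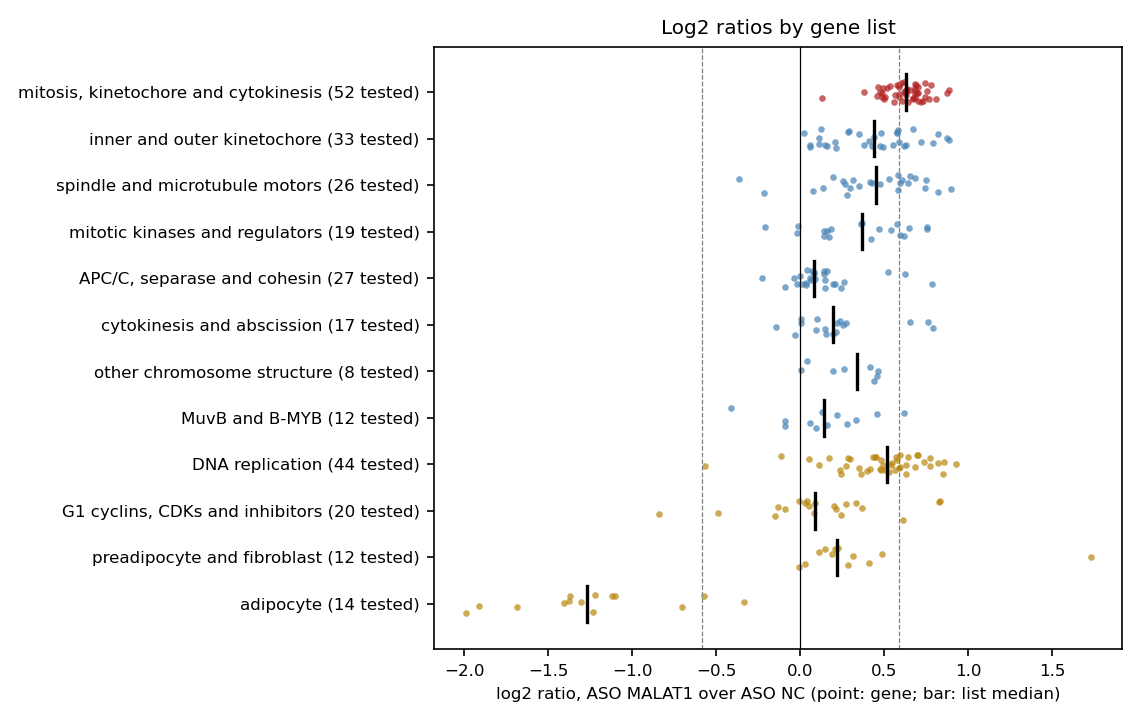
Log2 ratios of ASO MALAT1 over ASO NC, with a point for each gene tested, a bar at each list's median and dashed lines at 1.5-fold in either direction. The mitotic genes (red) gather round a median of 0.63, the other mitotic lists (blue) spread from -0.41 to 0.90, and the adipocyte markers are all below 0.

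The targeted RNA and the markers of cell type were read in the same libraries. Malat1 had 170402 counts in the ASO NC library and 45396 in the ASO MALAT1 library, which was 24.7% of the control level. The libraries held 58147539 and 61653549 counts. Of 15 adipocyte markers, Lep had 1 and 0 counts and was not tested. The other 14 were counted in both libraries, Slc2a4 with only 26 and 17 counts. Of these 14, 11 were called lower in the ASO MALAT1 library and 0 higher, with a median log2 ratio of -1.27. The summed level of the adipocyte markers went from 8170 to 3602 CPM. Of all tested genes, 7.44% were called lower and 4.68% higher by the same rule. With edgeR's exact test at a preset variation of 0.2 the count of adipocyte markers called lower was 3, and at 0.4 it was 0. Preadipocyte and fibroblast markers had a median of 0.22, with 11 of the 12 tested above 0 and 1 called higher (Cd34, from 19 to 69 counts). Their summed level went from 20306 to 22389 CPM, a ratio of 1.10. The preadipocyte marker Dlk1 had 0 counts in both libraries and was not tested. The library with the higher mitotic genes was thus also the one with the lower adipocyte markers, and the part of these markers in the result was not tested. In bulk RNA a larger number of dividing cells and more mitotic mRNA per cell cannot be told apart. Several defining markers of other cell types had 0 counts or 1, while others, among them Des, Cd68, Pecam1 and Tek, were counted in both libraries. Adgre1, Ptprc and Itgam of macrophages and Myod1, Myog and Myf5 of muscle had 0 counts in both libraries. Of endothelium, Cdh5 and Kdr each had 0 and 1 counts, Pecam1 had 26 and 25, and Tek had 23 and 19. The highest summed level among the macrophage, endothelial and skeletal muscle lists was 7.82 CPM. Of those lists Csf1r (3 and 13 counts) and Lyz2 (7 and 25) were called higher and Cd68 (172 and 119) and Des (448 and 314) were called lower.

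The promoter letters set the mitotic genes beside the other lists in another measure. RefSeq windows were at hand for 42 of the 52 genes, and 31 of these 42 (73.8%) held a CHR, against 15.1% of 11502 tested genes and 20.2% of 27025 genes with a window. With only the bases upstream of the start searched, 16 of the 42 (38.1%) held one, against 13.4% of tested genes. Within 50 bases of a start the CHR was found in 28 of the 42 (66.7%) and in 4.19% of the tested genes. A CCAAT was found in 71.4% of the mitotic genes and 42.8% of the tested genes, and at least 2 of them in 47.6% and 16.0%. CHR and CCAAT together were found in 25 of the 42 (59.5%) and in 6.24% of the tested genes, and upstream of the start in 13 of the 42 (31.0%) and in 5.16%. In the DNA replication list 20.0% of 35 genes held a CHR, and in the list of the anaphase-promoting complex and cohesin 20.8% of 24 genes did.

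The letters of E2F sites were distributed the other way. The search was for TTCCCGC, then for TTGGCGC, then for TTCGCGC and then for TTGCCGC, on both strands. At least 1 of these was found in 10 of the 42 mitotic genes (23.8%) and in 24 of 35 replication genes (68.6%), against 17.8% of tested genes. Within the mitotic genes, those with and without a CHR overlapped in ratio. The median log2 ratio was 0.63 for the 31 genes with a CHR and 0.68 for the 11 without, with ranges from 0.13 to 0.81 and from 0.49 to 0.87. Bub3, with the lowest ratio, held a CHR and CCAAT boxes in its windows, and Bub1, with the highest ratio among the genes with a window, held CCAAT boxes and no CHR.

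**Figure D4:**
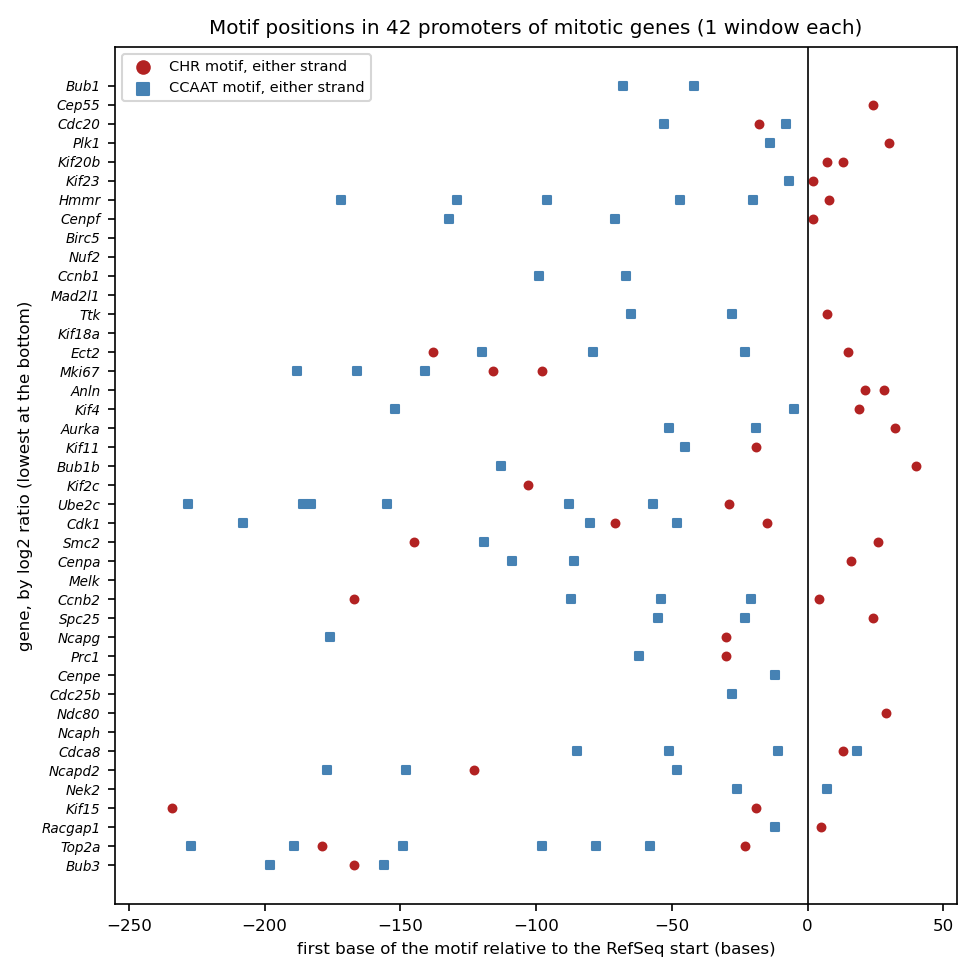
First base of each CHR (red circle) and CCAAT (blue square) match relative to the RefSeq start in 1 window for each of 42 mitotic genes, ordered by log2 ratio. Most CHR matches lie within 50 bases of the start on either side, and most CCAAT matches lie upstream of the start. Where a gene has several RefSeq starts, as Cep55 and Bub3 do, 1 is drawn, so the Cep55 match printed above appears at 24 bases after the other start.

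Of the mitotic genes, 10 have a protein-coding neighbour on the opposite strand whose GENCODE M21 start lies within 1000 bases of their own, a set found after the data were examined. The neighbours had a median log2 ratio of 0.02 and ran from -0.36 to 0.27, while the 10 mitotic genes had a median of 0.66. Of the 10 neighbours 6 were above 0 and 0 past 1.5-fold. Of all tested genes, 49.6% were above 0 and 8.29% were at least 1.5-fold higher with no p threshold, so the neighbours were near these shares. In each of the 10 pairs the interval of the mitotic gene lay wholly above that of its neighbour. Most mitotic genes also lay above nearly all genes of the same level, so this order was likely for almost any neighbour. The pairs therefore say nothing particular about nearby starts, whose part was not tested. Kif20a, 12 bases from the start of Brd8, stood at 0.70 and Brd8 at 0.02, with 5665 and 6172 counts. Kif18a, 10 bases from Mettl15, stood at 0.68 and Mettl15 at -0.36, with 224 and 188 counts. Foxm1 and Rhno1, which start 56 bases apart, stood at 0.74 and 0.27, and Smc4 and Ift80, 168 bases apart, were the closest pair in value, at 0.38 and 0.22. Exons of Kif4 and Pdzd11, Cdc25b and Spef1, and Kif18a and Mettl15 overlap, so without strand their reads could be mixed.

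**Figure D5:**
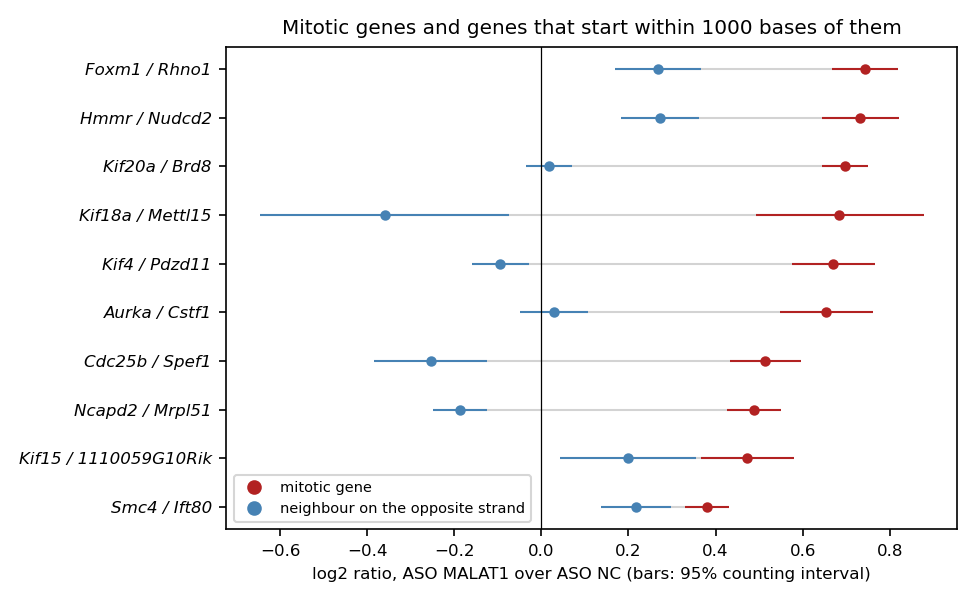
Log2 ratio of ASO MALAT1 over ASO NC for 10 mitotic genes (red) and the protein-coding genes that start within 1000 bases of them on the opposite strand (blue), with 95% intervals of the counts. Every red point lies right of its blue partner, and the blue points run from -0.36 to 0.27.

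Some mitotic genes share exons or near copies with other genes. In the GENCODE M21 annotation of GRCm38, 29.3% of the exon bases of Kif20a lie opposite exons of Cdc23, 22.8% of those of Ube2c opposite Tnnc2 and 15.1% of those of Kif4 opposite Pdzd11. Whether the counting used strand is not given in the sources used here, so reads from such pairs may be mixed. Cdc23 had 4936 and 5175 counts, a log2 ratio of -0.04, while Kif20a had 4388 and 7659. Ccnb1 has processed copies of at least 95% identity, of which Gm12856 had 5 and 13 counts and Gm8416 had 3 and 6, against 2343 and 4063 for Ccnb1.

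A call made from counts alone takes no account of how much cultures differ. With edgeR's exact test at a preset biological coefficient of variation of 0.1, 29 of the 52 genes were called higher (2.14% of all tested genes), and at 0.2 or 0.4 none were (0.127% and 0.00576%). At 0.2 the 22 genes called higher, and at 0.4 the 1 called, were all past 2-fold. Since no gene under 2-fold was called higher there, the 0 calls do not tell the mitotic genes from other changes of their size. How much replicate cultures varied was not measured here.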

How the data were processed

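Total RNA was depleted of rRNA and made into strand-keeping libraries, and the authors deposited raw counts of reads per gene symbol, without normalization. The submitters' processing notes name HISAT2 and GRCm38, while the counting tool, the annotation and any use of strand are not given in the sources used here. Each column was taken as the library whose label it carries. A gene entered the tests when its counts in both libraries summed to 10 or more. Library sizes were scaled by TMM factors (edgeR 4.0.16, R 4.3.3), 0.992 for ASO NC and 1.01 for ASO MALAT1. Log2 ratios carry a prior count of 0.5. Intervals are 95% Clopper-Pearson limits (scipy 1.17.1, Python 3.11.15). Without replicates neither edgeR's quasi-likelihood test nor DESeq2 could be run as a test, so an exact binomial test was used, which was tested on simulated data. Those data held counting error only, and their changes were all larger than 1.5-fold. They do not show how the test behaves near that line or when cultures vary. The limit that a count of 0 allows, 3 counts, is 0.0516 CPM in ASO NC and 0.0487 in ASO MALAT1. RPKM used the union of GENCODE M21 exons. Copies were sought with BLAST+ 2.17.0 (at least 95% identity over 200 bases). The alternatives were other scalings (DESeq2 1.42.0 among them), filters, prior counts and tests. The genes, the lists, the named genes and the 1.5-fold line were chosen with earlier results of these data known. Named genes are all 52, Malat1, the 2 highest and 2 lowest of each mitotic list among genes with at least 100 summed counts, Pcna, Mcm2, Rrm2, Ccnd1, Cdkn1a, Cdkn1b, Cdkn1c and any marker. Promoters shown are those of up to 6 genes with the highest ratios and a CHR upstream, among the 42 of the 52 that had a RefSeq window. The search for genes with nearby starts and the read-sharing checks were added later.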

Additional observations from a re-analysis of the deposited data

How the results depend on the processing

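All 52 mitotic genes stayed above 0 under every scaling, filter and prior count tried, and their median log2 ratio ran from 0.63 to 0.65. Calls at 1.5-fold numbered 35 to 38 under these settings. Tpx2 and Spc24 lost theirs at a prior count of 2, and Ncapg gained one under library totals and upper-quartile factors. With edgeR's exact test at a preset variation of 0.2 or 0.4, calls of higher genes went from 37 to 0 for the 52 genes, from 29 to 0 for the other mitotic lists, from 19 to 0 for the replication and G1 lists and from 3 to 0 for the markers. At these settings no gene under 2-fold was called higher, and outside the markers all genes of these lists were under 2-fold. Adipocyte markers called lower went from 11 to 3 at 0.2 and to 0 at 0.4. The marker count was 1 at 0.1, and it was 0 when each library had to hold 100 counts of a gene. The summed CPM ratio was 1.52 with library totals. The share of mitotic genes with a CHR fell to 38.1% when only bases upstream of the start were searched (13.4% of tested genes), and was 81.0% with TTTAAA counted too (23.7%). No library could be left out, and no paired analysis was possible because each group has 1 library. With no p threshold 37 genes again passed, so the 15 mitotic genes not called fell short on the size of the ratio. Counting error still blurs which genes pass that line: the counting interval lay wholly above 1.5-fold for 18 of the 37 called genes.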
